A study of Mus musculus with 8 samples.

Results

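The OCT4-FKBP line in DMSO was compared with its untagged parental line before any OCT4 degradation: 4 of the 8 libraries of the series, 2 in each group, chosen by their labelled cell source and treatment. Both groups were mouse V6.5 embryonic stem (ES) cells, a C57BL/6-129 hybrid line, grown on gelatin in 2i medium. The first group carried Oct4 as a fusion with Fkbp and had received DMSO, the solvent of the degrader, for 24 h. The second was the unmodified line (WT) kept under normal LIF, with no DMSO in its label. The other 4 libraries, the tagged line after 24 h with the degrader (labelled dTag9, called dTAG here) and WT cells 5 days after LIF withdrawal, are given only beside the values of this comparison. The labels name 1 fusion line and do not say whether it is 1 clone, so effects of the tag, of the line's derivation, of the solvent and of culture cannot be told apart. They also do not say that replicates were separate cultures, so the p-values measure library-to-library spread alone, possibly of technical origin.

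OCT4, encoded by Pou5f1, is a POU-family transcription factor that, together with SOX2, holds the pluripotent state of ES cells. Its dose matters: in ES cells lowered OCT4 is known to open the way to trophoblast-like expression, with Cdx2 among the first genes to appear. The 2i inhibitors block MEK, which carries FGF signals to ERK, and GSK3, which otherwise destroys beta-catenin, while LIF acts through JAK and STAT3. In a degron line, the FKBP tag lets a small molecule bring the fusion protein to an E3 ubiquitin ligase, so the untreated tagged line serves as the starting point of every degradation experiment.

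The unit of all levels below is CPM, counts scaled to a common library total, with TMM scaling of library sizes, and all calls use edgeR's quasi-likelihood test with a Benjamini-Hochberg adjusted p of 0.05 over the 10311 genes that passed its filter on low counts, out of 24921 gene symbols. The 4 libraries held 7221451 and 11447468 counted reads (DMSO) and 11308343 and 8323172 (WT). Within a group, log2 CPM of the replicates had a correlation across genes of 0.992 to 0.993. The spread of replicate counts was less alike. As a chi-square per degree of freedom it was 1.88 in DMSO and 4.50 in WT, so the WT pair varied more. The fit shares its estimate of spread across the groups. DMSO and WT lay apart on each of the first 3 principal components. On the second, with 21.1% of the variance, they stood at -12.9 and -13.3 against -46.4 and -46.9. On the third, with 5.27%, they stood at -32.7 and -25.8 against 21.6 and 20.6, with dTAG at 10.6 and 10.3. Counting was per RefSeq transcript, so genes whose transcripts share most of their sequence, among them Nanog with 0 reads and Esrrb with 1 read in the 8 libraries, could not be assessed. The libraries carried ES cell transcripts at high level in both lines, with Tfcp2l1 at 3599 and 3548 CPM in DMSO and 3205 and 3152 CPM in WT. Of 13 tested genes of a fibroblast and feeder list, 2 were called higher (Vim and Thy1) and 3 lower (Col5a1, Fn1 and Twist1). These shares were 15.4% and 23.1%, beside 18.5% and 22.1% of all genes. The list summed to 594 to 613 CPM in DMSO and 530 to 552 CPM in WT. Of its collagen genes, Col3a1 and Col6a1 had at most 1 read in each of these 4 libraries and Col1a2 5 to 7, while Col1a1 had 24 and 44 reads in DMSO and 22 in each WT library and was not called (edgeR adjusted p = 0.052). In bulk RNA, fewer cells of a type and less RNA per cell cannot be told apart.

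The baseline of the tagged line differed from that of the parental line in many genes, most of them by less than 1.5-fold. In all, 4191 genes (40.6%) were called, 1908 higher (18.5%) and 2283 lower (22.1%) in the OCT4-FKBP line. This balance depended on the setting: DESeq2 called 1496 higher and 1400 lower, and edgeR without DMSO replicate 2 called 1528 and 1462. Of the calls, 55.4% were under 1.5-fold. At least 2-fold, 360 genes were higher (3.49%) and 620 lower (6.01%), and at least 4-fold, 87 and 126. The values of the DMSO and WT libraries did not overlap for 6965 genes (67.5%). The median log2 fold change over all tested genes was -0.031. Against a null of a 1.5-fold change rather than none, 272 genes were called higher and 443 lower, a test added after the data had been seen.

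**Figure D1:**
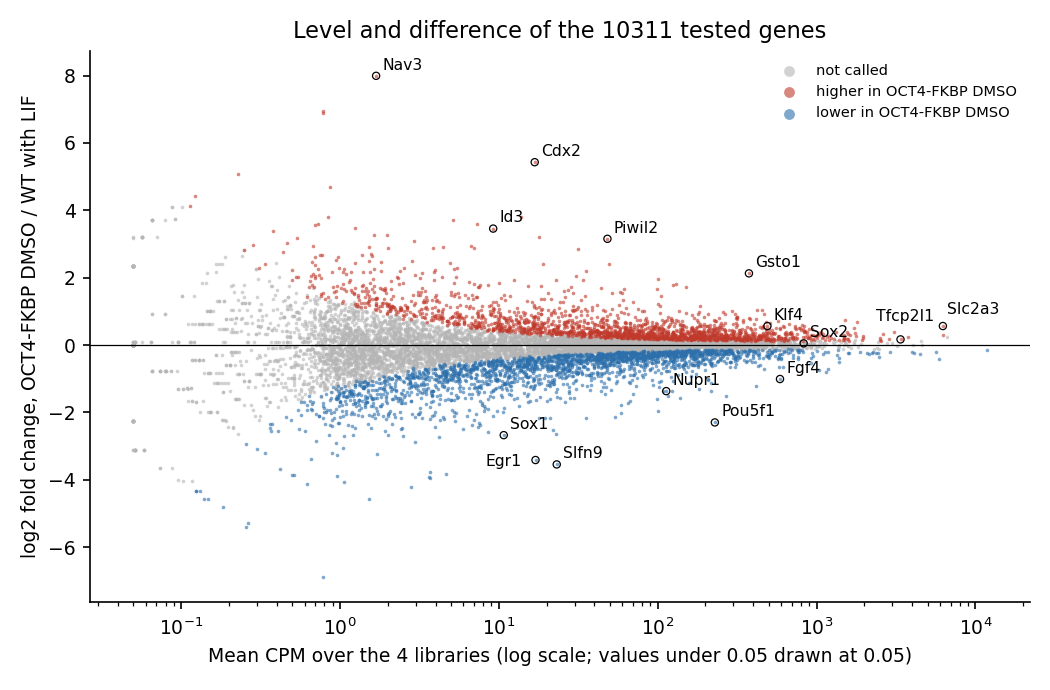
Each point is 1 of the 10311 tested genes, with its mean CPM over the 4 libraries on a log axis and its log2 fold change (OCT4-FKBP in DMSO over WT with LIF) on the vertical axis; red and blue mark calls at an edgeR adjusted p of 0.05. Pou5f1 lies at -2.30 and Cdx2 at 5.43, while Sox2 lies near 0. Nav3, with 0 reads in WT, is drawn at its fitted value, which is no measured fold.

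Pou5f1 itself was the first difference. Its level was 77.5 and 77.8 CPM in DMSO, against 425 and 336 CPM in WT, 4.91-fold lower in the tagged line (log2 fold change -2.30, SE 0.09, edgeR adjusted p = 3.5e-16). The dTAG libraries of the same line held 84.6 and 90.2 CPM, so both groups of the tagged line lay below all 4 libraries of the parental line, the lowest of which, without LIF, held 170 CPM. Nearly all counted reads came from 1 of its 2 transcript records, with 552 and 884 reads in DMSO and 4816 and 2856 in WT. The pseudogene Pou5f1-rs4, which resembles Pou5f1, had 12 and 10 reads in DMSO and 64 and 36 in WT. The value covers only sequence particular to that record in the reference, and protein was not measured; whether the fusion changes which reads are counted was not tested.

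Genes beside Pou5f1 on chromosome 17 showed smaller and mixed differences. Of the 12 genes listed within 6 places of it, 4 were tested. H2-Q10, a class I histocompatibility gene, was at 1.54 and 2.11 CPM in DMSO and 4.86 and 5.06 in WT (log2 fold change -1.39, edgeR adjusted p = 6.7e-04). The testis transcript 2300002M23Rik stood at 13.3 and 17.95 against 26.2 and 23.8 CPM (-0.65, edgeR adjusted p = 4.9e-04). Cchcr1, a coiled-coil gene, gave -0.35 and Psors1c2 1.17, and each lost its call under 3 of 16 other settings, which were DESeq2 for both, and without DMSO replicate 1 or WT replicate 1 for Cchcr1 (edgeR adjusted p = 0.093 and 0.20) and without DMSO replicate 2 or WT replicate 2 for Psors1c2 (0.23 and 0.13), which gave 1.99 without WT replicate 1. The median over chromosome 17 was -0.11, the lowest among chromosomes with at least 50 tested genes.

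Core pluripotency genes other than Pou5f1 were called in both directions. Sox2, the partner of OCT4 on DNA, held 854 and 835 CPM in DMSO and 766 and 864 CPM in WT, and its groups overlapped (log2 fold change 0.05, SE 0.06, edgeR adjusted p = 0.50). Without WT replicate 2 the Sox2 difference passed (0.17, edgeR adjusted p = 0.010), and without WT replicate 1 it turned to -0.035 and did not. Of 18 tested core pluripotency genes, 5 were called higher (27.8%) and 6 lower (33.3%), beside 18.5% and 22.1% of all genes, with a median of 0.03, and 3 differed by 2-fold or more. Fgf4, a growth factor that OCT4 and SOX2 activate together, fell from 773 and 801 CPM in WT to 379 and 403 CPM in the tagged line, 2.01-fold (edgeR adjusted p = 9.3e-14). Nr0b1 (DAX1), a nuclear receptor that binds OCT4, was at 49.0 and 43.6 against 57.2 and 63.1 CPM (-0.38, edgeR adjusted p = 0.0019), a call lost without DMSO replicate 2 (0.12). Tdgf1, the Nodal co-receptor Cripto, gave -0.24, lost without WT replicate 2 (edgeR adjusted p = 0.13). In the other direction, Dppa2, a chromatin factor of early embryos, stood at 84.4 and 89.4 CPM against 28.2 and 30.8 CPM, 2.96-fold higher (edgeR adjusted p = 2.7e-13), and L1td1, an RNA-binding protein, at 583 and 591 against 472 and 435 CPM.

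Naive pluripotency genes were called higher more often than lower. Of 19 tested, 8 were higher (42.1%, beside 18.5% of all genes) and 3 lower (15.8%, beside 22.1%), with a median of 0.14; without the 1 member on the distal part of chromosome 6 described below, Dppa3, the counts were 7 and 3 of 18. Klf4, a LIF-responsive naive factor, held 594 and 576 CPM in DMSO and 373 and 419 CPM in WT, 1.48-fold higher (log2 fold change 0.56, SE 0.06, edgeR adjusted p = 1.8e-08). Manba, a lysosomal mannosidase, was at 143 and 142 against 65.3 and 62.7 CPM, and the T-box factor Tbx3 at 6.88 and 8.27 against 2.47 and 3.18 CPM. Tfcp2l1 gave 0.17 (edgeR adjusted p = 0.0085). Zfp42 (REX1) gave 0.14 (edgeR adjusted p = 0.035), a call lost under 2 of 16 other settings, among them that without DMSO replicate 2. Dppa5a, an abundant ES cell transcript, went the other way, with 771 and 777 CPM against 1330 and 1266 CPM in WT (-0.75, edgeR adjusted p = 8.7e-12).

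Genes of the LIF-STAT3 list were called in both directions. Of 15 tested, 5 were higher (33.3%) and 4 lower (26.7%), beside 18.5% and 22.1% of all genes. Socs3, the feedback inhibitor of JAK kinases and a direct STAT3 target, was at 179 and 173 CPM in DMSO and 258 and 255 CPM in WT (-0.54, edgeR adjusted p = 3.2e-08). The kinase genes Pim1 and Pim3 gave -0.48 and -1.11, with Pim3 at 66.1 and 63.5 against 147 and 132 CPM. Klf4, Klf5 (0.30) and Zfp36l1 (0.61), a decay factor of short-lived mRNA, were higher. Il6st, the receptor subunit gp130, was at 197 and 184 CPM in DMSO and 184 and 188 in WT and was not called (0.03, edgeR adjusted p = 0.70).

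Wnt targets included the largest increase among genes with a mean of at least 5 CPM. Of 17 tested, 7 were called higher (Cdx2, Rnf43, Sp5, Notum, Cdx1, Ccnd1 and Axin2) and 2 lower (Ascl2 and Sox9). These shares were 41.2% and 11.8%, beside 18.5% and 22.1% of all genes. The median was 0.79, or 0.86 without the 3 members that had 3 or fewer reads in a group. Cdx2, a homeobox factor of trophectoderm and posterior embryo, was counted at 30.7 and 35.0 CPM in DMSO and 0.53 and 1.06 CPM in WT, 43.1-fold higher (log2 fold change 5.43, SE 0.23, edgeR adjusted p = 1.5e-15). It was at 192 and 169 CPM in the dTAG libraries and at 2.73 and 1.4999 CPM in WT without LIF, so the groups of the 2 lines did not overlap in either treatment. Sp5, a direct beta-catenin target, stood at 42.8 and 44.2 against 14.6 and 15.5 CPM (1.54, SE 0.10), and Rnf43, a ubiquitin ligase that removes Wnt receptors, at 8.84 and 8.54 against 1.85 and 1.76 CPM (2.25, SE 0.25). Axin2, the feedback scaffold of the pathway, was at 162 and 148 against 91.5 and 86.8 CPM (0.79, SE 0.07, edgeR adjusted p = 6.9e-10). Both lower calls rested on few reads: Sox9 had 0 and 3 reads in DMSO and 7 and 8 in WT and lost its call under 9 of 14 other settings, and Ascl2 lost its own under 5 of 16, with edgeR adjusted p up to 0.14, among them those without either DMSO or either WT library.

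Sp5 is the called Wnt target with a match to the TCF/LEF letters, so its 250 bases before the annotated start are shown (RefSeq, GRCm38.p6), with the TCF/LEF letters CTTTGAT in capitals.

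Sp5 (chr2:70474673-70474922, plus strand): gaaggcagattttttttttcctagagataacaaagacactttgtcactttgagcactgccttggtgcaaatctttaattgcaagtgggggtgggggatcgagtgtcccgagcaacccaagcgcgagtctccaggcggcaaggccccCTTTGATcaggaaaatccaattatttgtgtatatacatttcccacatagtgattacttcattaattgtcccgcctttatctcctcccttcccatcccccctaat

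The letters CTTTGAT or CTTTGAA, on either strand, were found in this window in 3 of the 10 Wnt targets that have an entry in the promoter table (Sp5, T and Dkk1). They were found in 5.81% of the 8050 tested genes with an entry, and in 7.48% of all 32851 promoters. Neither T nor Dkk1 was called. A match is a description of the sequence and not evidence of binding.

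Secreted Wnt antagonists did not move one way. Of 10 tested, 3 were higher (Notum, Wif1 and Sost) and 3 lower (Sfrp1, Sfrp2 and Sfrp4). Both shares were 30%, beside 18.5% and 22.1% of all genes. Notum, an enzyme that inactivates Wnt ligands and is itself induced by Wnt, was at 71.0 and 68.1 against 31.4 and 34.8 CPM (1.07, edgeR adjusted p = 2.0e-10). Sfrp1, the most abundant of the soluble Wnt-binding proteins in these cells, was at 500 and 513 CPM against 642 and 662 CPM in WT (-0.36).

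Trophoblast genes, Cdx2 among them, were called in both directions. Of 18 tested, Cdx2 included, 6 were called higher (33.3%) and 4 lower (22.2%), beside 18.5% and 22.1% of all genes. Their median was 0.14. The X-linked homeobox genes Rhox6 and Esx1, both placental, went in opposite directions, with Rhox6 at 5.19 and 5.02 against 1.15 and 1.41 CPM (2.00, edgeR adjusted p = 2.0e-06) and Esx1 at 4.21 and 3.17 against 10.8 and 13.2 CPM (-1.72, edgeR adjusted p = 8.9e-08). Keratin gene Krt8 was at 17.1 and 15.7 against 10.9 and 9.29 CPM (0.68), and Dusp9, a phosphatase of ERK, at 80.0 and 76.8 against 59.6 and 54.1 CPM (0.46).

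Among primitive streak genes, 7 of 20 were higher (35%) and 4 lower (20%), beside 18.5% and 22.1% of all genes. Their median of 0.52 fell to 0.18 without the 3 members that had 3 or fewer reads in a group, and the list shares Sp5 and Cdx1 with the Wnt targets. Wnt3, a ligand that starts the streak, was at 2.53 and 2.64 CPM in DMSO and 0.44 and 0.47 in WT (2.48, edgeR adjusted p = 4.2e-05), whereas Wnt3a was at 1.12 and 1.06 against 4.24 and 4.94 CPM (-2.06, edgeR adjusted p = 4.2e-05). Snai1, a repressor of E-cadherin, was at 4.07 and 3.34 against 0.62 and 1.29 CPM (1.98). Cdx1, a homeobox factor of the posterior embryo, was at 141 and 133 against 71.8 and 68.6 CPM (0.96), and Lefty2, an antagonist of Nodal, at 298 and 291 against 408 and 398 CPM (-0.45).

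Of 13 tested neural genes, 6 were called lower (46.2%) and 2 higher (15.4%), beside 22.1% and 18.5% of all genes, with a median of -0.57. Sox1, the earliest neural SOX factor, was at 3.65 and 2.38 CPM in DMSO and 17.9 and 19.1 CPM in WT, 6.38-fold lower (edgeR adjusted p = 2.1e-11). Elavl3 and Stmn2 gave -1.05 and -0.65, and Nes -0.32, which was lost without WT replicate 1 (edgeR adjusted p = 0.12). Tubb3, a neuronal tubulin, went against them at 154 and 155 against 55.4 and 57.8 CPM (1.45, edgeR adjusted p = 2.6e-14). Of 15 formative and primed genes, 4 were lower (Sox11, Pou3f1, Sox3 and Sfrp2) and 3 higher (Zic2, Cdh2 and Dusp6), shares of 26.7% and 20% that lie near those of all genes. Sox11 was at 6.18 and 7.92 against 22.4 and 24.4 CPM (-1.69), and Zic2, a zinc finger factor of early neural tissue, at 96.4 and 97.4 against 49.4 and 67.2 CPM (0.75, edgeR adjusted p = 5.8e-07). Of 9 primitive endoderm genes, 0 were higher and 3 lower (33.3%), beside 18.5% and 22.1% of all genes. Only Col4a2, a basement membrane collagen (2.81 and 4.05 against 7.95 and 6.94 CPM, edgeR adjusted p = 1.6e-04), kept its call in all 16 other settings; Lamb1 lost its own under 7 (0.56 without WT replicate 1) and Lamc1 under 2 (0.21 without DMSO replicate 2, 0.093 without WT replicate 1).

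**Figure D2:**
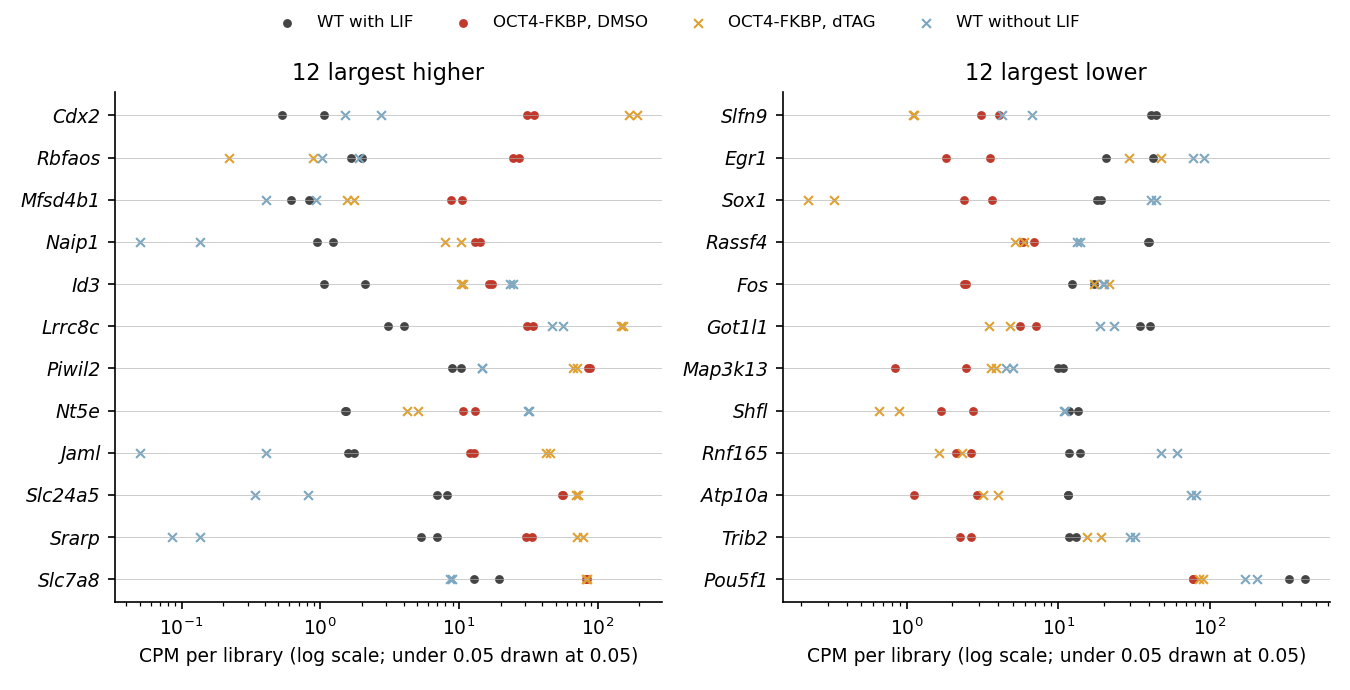
CPM per library on a log axis for the 12 genes with the largest log2 fold change each way (adjusted p of 0.05, mean of at least 5 CPM, groups not overlapping); filled circles are the 4 libraries compared and crosses the dTAG and no-LIF libraries. Of the genes drawn, Cdx2 has the largest increase and Slfn9 the largest decrease, and the dTAG crosses of Egr1, Fos and Trib2 lie with or above WT while those of Sox1 and Rassf4 lie below DMSO.

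The largest increases after Cdx2, under the same limit, covered genes of unrelated function. Piwil2, which binds piRNAs in germ cells, was at 85.6 and 88.3 CPM in DMSO and 10.4 and 8.94 CPM in WT, 8.91-fold higher (edgeR adjusted p = 2.7e-17). Id3, an inhibitor of bHLH factors and a BMP target, was at 17.3 and 16.5 against 1.06 and 2.12 CPM (log2 fold change 3.46, SE 0.22). The others were the antisense transcript Rbfaos (3.80, on a strand setting not given in the sources used here, so that reads of its sense partner cannot be told apart), Mfsd4b1 (3.72), the inflammasome sensor Naip1 (3.61, one of several similar copies among which reads can be split), the volume-regulated channel subunit Lrrc8c (3.22), the ecto-nucleotidase Nt5e (2.93), the adhesion protein Jaml (2.89), the ion exchanger Slc24a5 (2.87), Srarp (2.42) and the amino acid transporter Slc7a8 (2.40). By CPM gained, the abundant Gsto1, a glutathione transferase of the omega class, went from 140 and 139 CPM in WT to 626 and 597 CPM, 4.38-fold (edgeR adjusted p = 1.5e-19), Ticrr, a factor that starts DNA replication, from 305 and 288 to 623 and 601 CPM, and Mat2a, which makes S-adenosylmethionine, from 266 and 285 to 560 and 573 CPM. Nav3, a microtubule-binding protein, had 25 and 37 reads in DMSO and 0 in both WT libraries, at least 21.7-fold higher against a floor of 3 reads over the group, a bound that covers counting error only.

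Among genes with a mean of at least 5 CPM, the largest decreases held immediate early genes, a Schlafen gene and Pou5f1. Slfn9, of the Schlafen family of growth and virus regulators with near-identical copies, was at 3.09 and 4.05 CPM in DMSO and 44.5 and 41.1 CPM in WT, 11.7-fold lower (edgeR adjusted p = 1.4e-14). Rassf4, a RAS-association protein, was at 6.88 and 5.90 against 39.5 and 39.3 CPM, 6.25-fold lower. Map3k13, Shfl, Rnf165, Atp10a, Got1l1 and Trib2 fell by 2.49, 2.43, 2.38, 2.38, 2.52 and 2.32 on the log2 scale. Without DMSO replicate 2, Map3k13 stood at -3.56 and Atp10a at -3.32. At the other end of 16 other settings they stood at -2.03 and -1.96. By CPM lost, Slc7a5, the large neutral amino acid transporter, went from 1448 and 1458 CPM in WT to 845 and 826 CPM (edgeR adjusted p = 2.9e-12), and the aminotransferase Gpt2 from 573 and 588 to 250 and 253 CPM.

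Genes of the integrated stress response were lower as a group. In that response, kinases such as GCN2 and PERK favour translation of ATF4, which activates amino acid transport, amino acid synthesis and tRNA charging genes. Of 29 tested members, 23 (79.3%) were called lower and 0 higher, beside 22.1% lower of all genes, with a median of -0.87; between 19 and 23 were lower in the other settings. Cth, which makes cysteine from cystathionine, was at 141 and 138 CPM in DMSO and 382 and 408 CPM in WT, 2.83-fold lower (log2 fold change -1.50, SE 0.06, edgeR adjusted p = 2.7e-16). Nupr1, a stress-induced chromatin protein, was at 59.9 and 66.2 against 164 and 163 CPM (-1.37), and Pck2, the mitochondrial PEPCK, at 121 and 125 against 337 and 290 CPM (-1.35). Trib3, Stc2 and Ddit4 gave -1.05, -1.31 and -1.13, and the glycyl-tRNA ligase Gars -0.70 at 905 and 885 against 1501 and 1403 CPM. The mitochondrial folate enzyme Mthfd2, at 605 and 622 against 649 and 668 CPM, was not called (edgeR adjusted p = 0.14). It is the 1 tested member on the distal part of chromosome 6 described below, and of the 28 elsewhere 23 were called lower. Whether its position bears on its level was not tested. Of the mRNA of Atf4, reads were too few to place it, at most 2.30 CPM in any of the 4 libraries.

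The C/EBP-ATF response element was searched as TGATGNAA on either strand in the 250 bases before the start. It was present in 9 of the 24 members with an entry in the promoter table (37.5%). The share was 2.35% of the 8050 tested genes with an entry, and 3.45% of all 32851 promoters. The list was drawn up as genes of this response, so its choice favours genes with this element. All 9, which were Aars, Asns, Atf3, Chac1, Fgf21, Gars, Nupr1, Pck2 and Slc7a11, were called lower, as were 79.3% of all tested members. A link between element and call was not tested. The 5 shown (RefSeq, GRCm38.p6, capitals marking the element) are those of genes whose log2 fold change was -0.88 or lower, without Fgf21, which had 2 reads in DMSO, so that the shared letters can be compared.

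Nupr1 (chr7:126625471-126625720, minus strand): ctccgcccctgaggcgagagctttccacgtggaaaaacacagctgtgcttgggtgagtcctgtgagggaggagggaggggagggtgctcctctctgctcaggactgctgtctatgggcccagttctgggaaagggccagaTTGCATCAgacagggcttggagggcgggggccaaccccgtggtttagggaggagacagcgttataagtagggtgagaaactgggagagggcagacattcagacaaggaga
Pck2 (chr14:55540016-55540265, plus strand): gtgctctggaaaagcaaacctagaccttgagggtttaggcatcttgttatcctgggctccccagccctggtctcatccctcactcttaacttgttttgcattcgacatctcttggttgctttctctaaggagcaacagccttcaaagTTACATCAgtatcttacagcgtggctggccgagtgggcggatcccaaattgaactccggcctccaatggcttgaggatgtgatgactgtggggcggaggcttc
Atf3 (chr1:191183334-191183583, minus strand): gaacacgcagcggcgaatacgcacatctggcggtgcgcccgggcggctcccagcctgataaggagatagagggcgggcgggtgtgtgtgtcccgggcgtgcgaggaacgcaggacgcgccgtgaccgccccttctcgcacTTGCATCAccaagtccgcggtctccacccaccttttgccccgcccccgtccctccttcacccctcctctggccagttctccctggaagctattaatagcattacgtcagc
Slc7a11 (chr3:50443614-50443863, minus strand): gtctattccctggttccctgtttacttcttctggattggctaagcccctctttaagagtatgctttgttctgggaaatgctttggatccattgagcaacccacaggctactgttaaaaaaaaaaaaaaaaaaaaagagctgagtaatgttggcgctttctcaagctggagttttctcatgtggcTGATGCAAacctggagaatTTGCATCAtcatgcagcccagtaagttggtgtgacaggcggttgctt
Chac1 (chr2:119350992-119351241, plus strand): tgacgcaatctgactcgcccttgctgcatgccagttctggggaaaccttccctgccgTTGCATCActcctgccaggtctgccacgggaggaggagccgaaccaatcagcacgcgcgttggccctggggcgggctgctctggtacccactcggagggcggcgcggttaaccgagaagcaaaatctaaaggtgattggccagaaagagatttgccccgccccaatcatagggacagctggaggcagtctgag

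The first match lay 110 bases before the start in Nupr1, 103 in Pck2, 110 in Atf3, 66 in Slc7a11 and 193 in Chac1. Beside these sequences, Atf3, itself a stress-induced bZIP factor, was at 12.9 and 13.5 CPM in DMSO and 28.9 and 28.3 CPM in WT. Slc7a11, the cystine importer, was at 6.32 and 5.46 against 11.2 and 10.8 CPM, and Chac1, which degrades glutathione, at 25.7 and 24.0 against 43.3 and 47.9 CPM. In each of these the 2 groups did not overlap, as for 67.5% of all tested genes.

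**Figure D3:**
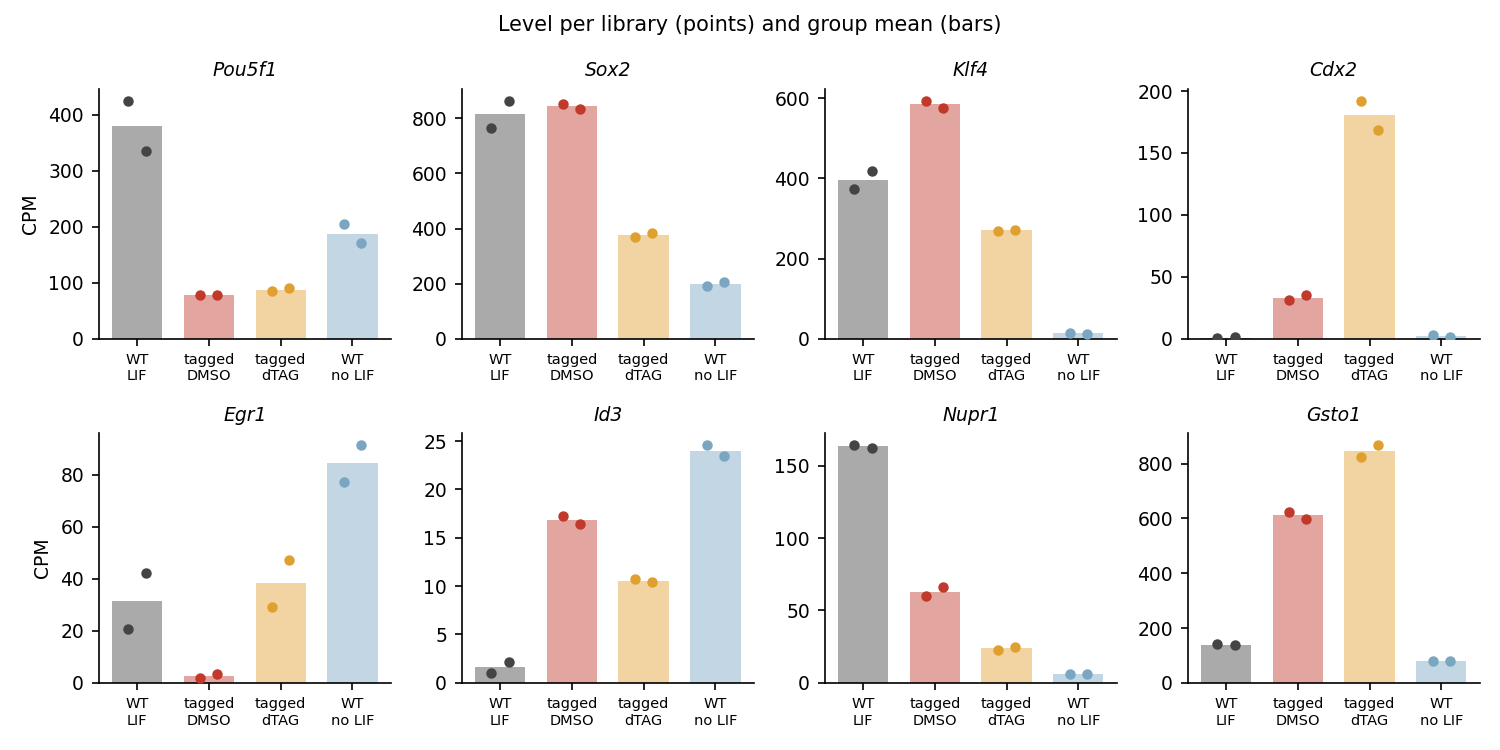
CPM of 8 genes in the 8 libraries, points for libraries and bars for group means from 0. Pou5f1 is low in both groups of the tagged line, Cdx2 is low in both groups of the parental line, and Nupr1 is highest in WT with LIF.

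Targets of p53 were also called mostly lower, with 11 of 20 lower (55.0%, beside 22.1% of all genes) and 0 higher (median -0.30), although 2 of them, Sesn2 and Btg2, are shared with the stress response and immediate early lists. Pmaip1 (NOXA), a BH3-only cell death protein that ATF4 can also induce, was at 12.4 and 13.6 CPM in DMSO and 56.3 and 60.3 CPM in WT, 4.45-fold lower (edgeR adjusted p = 3.6e-15). Bbc3 (PUMA) gave -0.93 and Zmat3, an RNA-binding p53 target, -0.51 at 345 and 333 against 481 and 482 CPM. With DESeq2 in place of edgeR, 6 of the 20 were lower, beside 1400 of all 10311 genes, and without WT replicate 1 or WT replicate 2, 9 were lower and 1 or 2 higher.

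Immediate early genes were lower and heat shock genes higher. Of 21 genes on the joint list, 12 were lower, all of them immediate early genes, and 5 higher, all of them chaperones or their partners (Hsph1, Hspa8, Hsp90aa1, Hspb1 and Bag3). These shares were 57.1% and 23.8%, beside 22.1% and 18.5% of all genes. Egr1, a zinc finger factor induced within minutes by ERK, was at 1.82 and 3.52 CPM in DMSO and 20.6 and 42.2 CPM in WT, 10.6-fold lower (log2 fold change -3.41, SE 0.33, edgeR adjusted p = 9.5e-09). The size for Egr1 rested on single libraries, with -4.03 without DMSO replicate 2 and -2.81 without WT replicate 2, and it was called in both cases. Fos was at 2.39 and 2.46 against 12.3 and 17.3 CPM (-2.57). In the dTAG libraries Egr1 stood at 29.2 and 47.4 CPM and Fos at 17.2 and 21.5 CPM, so the low level was seen in DMSO and not in both groups of the tagged line. Jun, Ier2 and Klf6 gave -0.87, -0.59 and -0.57. Hsph1, a co-chaperone of HSP70, was at 59.1 and 56.9 against 27.2 and 23.5 CPM (1.18, edgeR adjusted p = 8.6e-10), and Hsp90aa1 at 4123 and 4022 against 3419 and 3459 CPM (0.24).

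Feedback genes of FGF and ERK, which share Egr1 and Fos with the list above, were divided. Of 16, 6 were higher (37.5%) and 5 lower (31.25%), beside 18.5% and 22.1% of all genes. Spry4, an inhibitor of receptor tyrosine kinase signalling, was at 5.33 and 4.93 against 1.85 and 1.88 CPM (1.44), and the ERK phosphatase Dusp6 at 11.1 and 12.1 against 8.21 and 6.47 CPM (0.65). Its relative Dusp4 was at 2.39 and 2.20 against 4.59 and 4.59 CPM (-1.01), and Ier3 gave -1.07. Ccnd1, the G1 cyclin that both ERK and Wnt signals induce, was at 353 and 341 against 184 and 184 CPM, 1.89-fold higher (edgeR adjusted p = 6.5e-13). Of 19 Nodal and BMP genes, 4 were higher (21.1%) and 7 lower (36.8%), beside 18.5% and 22.1% of all genes. Without Gdf3, which lies on the distal part of chromosome 6 described below, the counts were 3 and 7 of 18. Next to Id3, the inhibitory SMAD gene Smad7 was at 155 and 149 against 88.5 and 93.5 CPM (0.74) and the Nodal-related ligand Gdf3 at 376 and 362 against 239 and 266 CPM (0.55), while Lefty1 (-0.47) and the activin subunit Inhbb (-1.48) were lower.

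Cholesterol synthesis genes were lower in 14 of 19 cases (73.7%, beside 22.1% of all genes) and higher in 3 (15.8%, beside 18.5%), with a median of -0.41 and 9 to 14 lower in the other settings. Most of the path from mevalonate to cholesterol is under SREBP2, which INSIG1 restrains. Srebf2, which encodes SREBP2, was at 501 and 490 CPM in DMSO and 665 and 629 in WT (-0.39), and Insig1 at 244 and 255 against 382 and 359 CPM (-0.57). Cyp51, the lanosterol demethylase, was at 344 and 329 against 520 and 520 CPM (-0.63, SE 0.05, edgeR adjusted p = 4.2e-10). Higher genes included the sterol isomerase Ebp (0.47) and the squalene epoxidase Sqle (0.17), the latter losing its call without DMSO replicate 2 (edgeR adjusted p = 0.067). The sterol response letters TCACNCCAC were found in 0 of the 14 genes of this list with a promoter entry. They were found in 1.13% of the 8050 tested genes with one, and in 1.05% of all promoters.

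**Figure D4:**
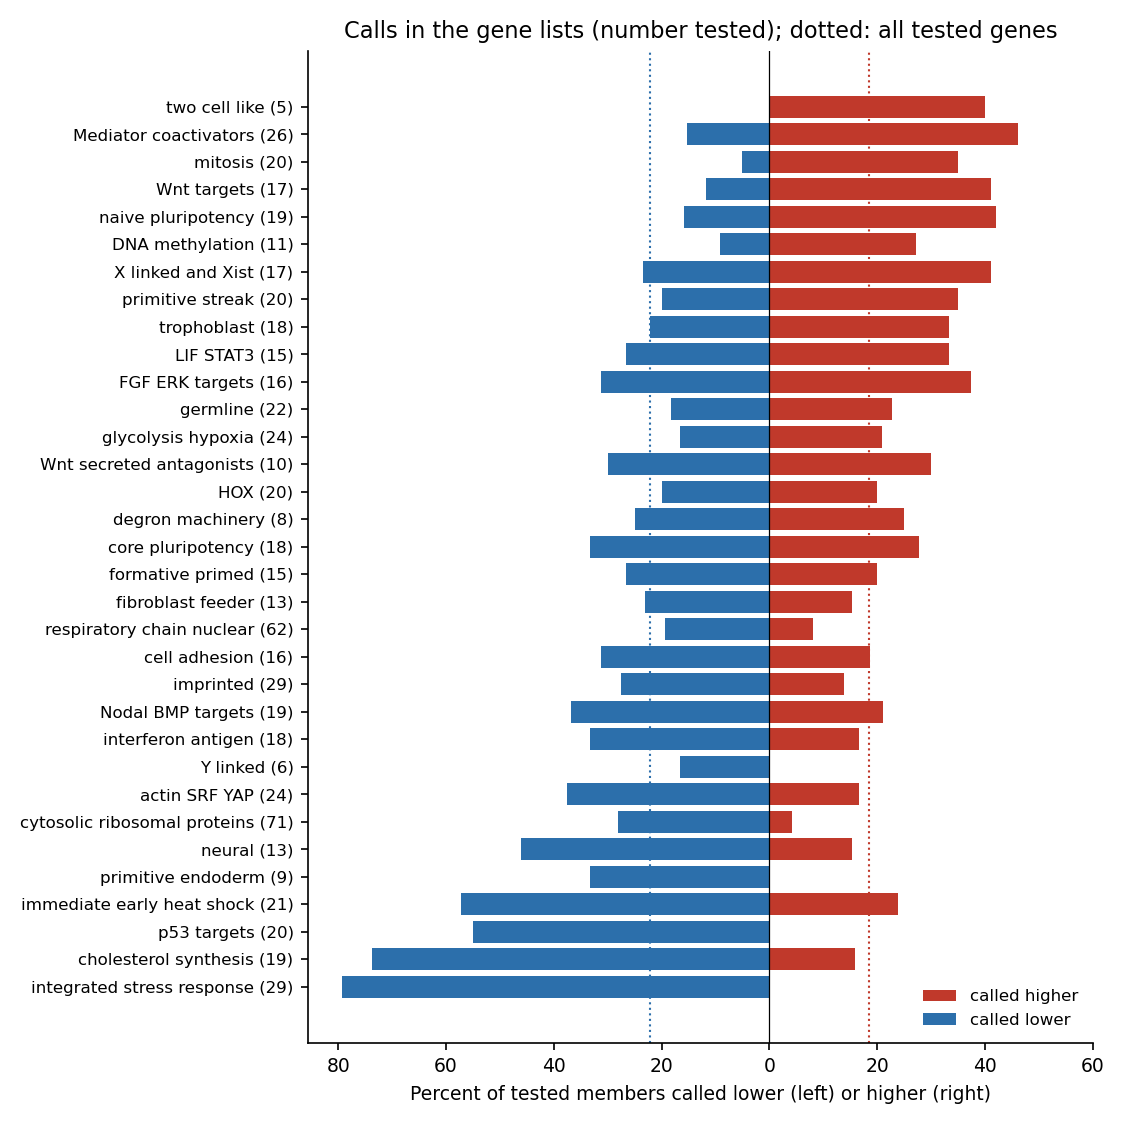
Percent of the tested members of each gene list called higher (red, right) or lower (blue, left) in the OCT4-FKBP line in DMSO, with the number tested in brackets; dotted lines mark the 18.5% and 22.1% of all tested genes. The integrated stress response, cholesterol synthesis, immediate early and p53 lists reach farthest to the left.

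Chromosome 6 stood apart from the other chromosomes. Its 503 tested genes had a median log2 fold change of 0.25, against -0.11 to 0.01 on the other 19 chromosomes tested, and 37.8% of them were called higher, against 12.4% to 21.2% elsewhere. With genes taken in RefSeq order in blocks of about 50, the first 4 blocks had medians of -0.17 to -0.08 and the last 6 blocks, from Mrpl19 to the end of the chromosome, 0.35 to 0.52, while 196 blocks on other chromosomes ran from -0.29 to 0.23. The boundary was placed after the values had been seen, so the 2 parts are described without a test.

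The distal part held 300 tested genes, of which 166 were called higher (55.3%) and 21 lower (7.0%), beside 17.5% and 22.4% on the other chromosomes. Its median was 0.42, a 1.34-fold difference. In the distal part 79.7% of genes lay above 0, against 45.8% on the other chromosomes. At 50 CPM or more, 91.6% of its 131 genes did, against 52.7% on the other chromosomes. It held 2.91% of the tested genes and 8.70% of all higher calls. Relative to the mean of the 8 libraries, its median gene lay at 0.27 and 0.24 in the DMSO libraries and 0.19 and 0.17 in dTAG, and at -0.15 and -0.17 in WT with LIF and -0.27 and -0.25 without LIF. All 4 libraries of the tagged line were thus on one side and all 4 of the parental line on the other. Between dTAG and WT without LIF, the other 4 of these 8 libraries, the distal median was 0.41 and the proximal one -0.10, with -0.01 on the other chromosomes, although single blocks elsewhere then ran from -0.48 to 0.56. DNA copy number was not analysed here, and its part in the result was not tested.

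Several of the most abundant increases lay in this distal part. Mcm2, a subunit of the replicative helicase, was at 2277 and 2166 CPM in DMSO and 1414 and 1353 CPM in WT (0.68, edgeR adjusted p = 7.7e-11). Pcbp1, an RNA-binding protein, was at 1923 and 1877 against 1057 and 1198 CPM (0.75). Slc2a3, the glucose transporter GLUT3, gave 0.57 from 4913 and 5150 to 7561 and 7333 CPM, and the mitochondrial prohibitin Phb2 0.61. List members Dppa3 (0.47), Gdf3 (0.55), Med21 (0.84), Rpl32 (0.39), Cd9 (0.38) and Fkbp4 (0.40) are also distal. The Mediator and coactivator list counted 12 higher (46.2%) and 4 lower (15.4%) of 26, beside 18.5% and 22.1% of all genes. Without Med21 the counts were 11 and 4 of 25. The glycolysis and hypoxia list counted 5 higher (20.8%) and 4 lower (16.7%) of 24, near the shares of all genes. Without its 4 distal members the counts were 3 and 4 of 20.

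**Figure D5:**
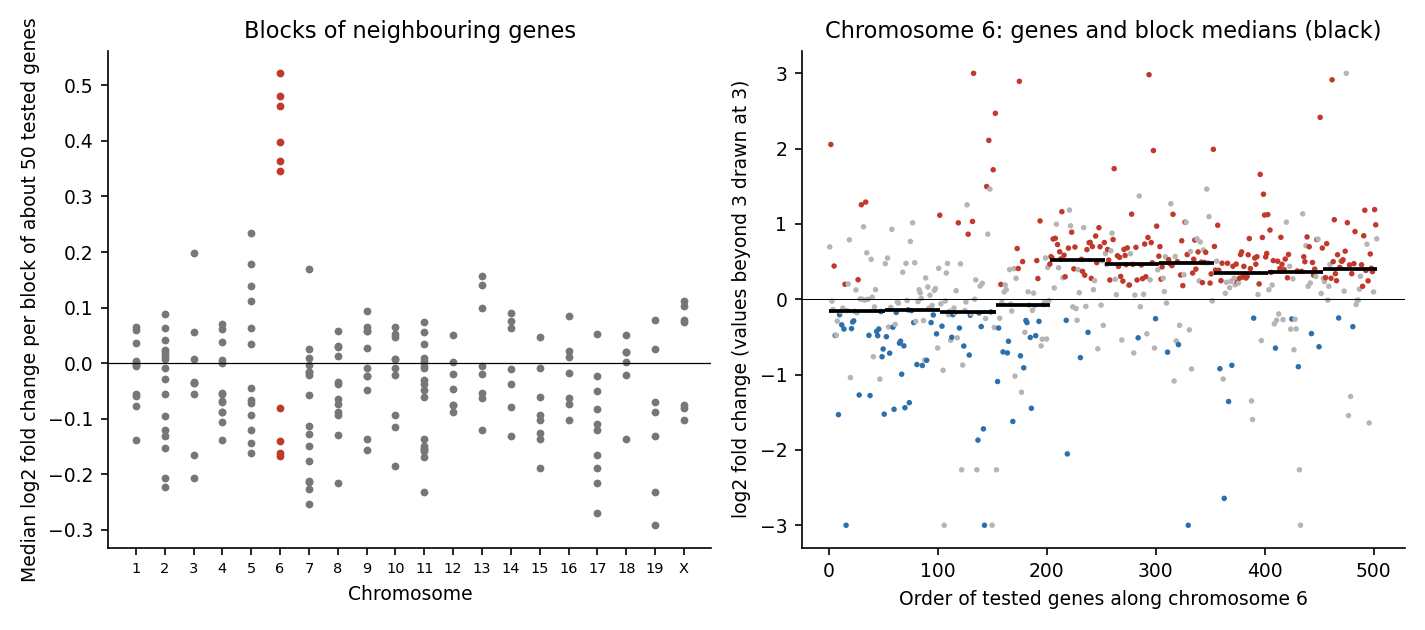
Left, median log2 fold change of each block of about 50 neighbouring tested genes by chromosome, chromosome 6 in red. Right, the log2 fold change of each tested gene in its order along chromosome 6, coloured by call, with the block medians in black. The last 6 blocks lie between 0.35 and 0.52 and every block of the other chromosomes at 0.23 or below.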

How the data were processed

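Poly(A) RNA was read as 40-base single reads from stranded libraries, per the labels' protocols. Files deposited by the authors give raw counts of reads for each RefSeq transcript; HISAT2, HTSeq and mm9 are named, without versions, per the submitters' processing notes, and the sources used here do not give the strand setting. Each gene symbol took the sum of its accessions: 41325 of 41565 were named by RefSeq and 126 by GENCODE. HTSeq's summary lines were left out; ambiguous reads made up 42.5% of counted plus ambiguous reads, and genes with 1 accession carried 96.2% of counted reads. The build of the reference differs from mm9, so it gave names, gene order and promoter sequences only. The 4 groups of 8 libraries were fitted together in edgeR 4.0.16 (R 4.3.3; filterByExpr, TMM, quasi-likelihood, 4 residual degrees of freedom); a standard error is the log2 fold change over the square root of F. DESeq2 1.42.0, other scalings, filters and left-out libraries were alternatives. On simulated counts for this comparison, 84% of 50 genes changed 1.5-fold and 100% of those changed 2-fold were recovered, among 9808 genes. Of the unchanged genes, 9 were called. The changed genes all had a mean of at least 5 CPM over the 8 libraries, and the simulated spread followed the fitted trend. Recovery of genes with fewer counts, or with a spread above that trend, was thus not covered.

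The comparison, the 34 gene lists and the rules were chosen with earlier results of these data known. Named genes are 8 pluripotency factors, the 12 largest changes each way (mean of at least 5 CPM, groups not overlapping), the 6 largest CPM differences each way at 1.5-fold or more, the members of smallest adjusted p of each list (3 for 8 main lists, 1 for others), the 6 neighbours of Pou5f1 on each side, and genes at 0 reads in 1 line; further list members were chosen as examples after their values were seen. Intervals and floors cover counting error only. The replicate numbers do not pair the libraries. Some genes are not reported here.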

Additional observations from a re-analysis of the deposited data

How the results depend on the processing

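The number of genes called was 4191 in the planned test and stayed within 1.5 times of it under other scalings and filters, with DESeq2 at 2896. Lower calls, 2283, dropped to 1400 with DESeq2 and to 1462 without DMSO replicate 2, where higher calls, 1496 and 1528, outnumbered them. Leaving out 1 of the 8 libraries at a time gave 2990 to 4143 calls, 1528 to 2109 higher and 1462 to 2226 lower; the group left with 1 library is then assumed to vary like the others. Without chromosome 6 genes 3914 were called. Tested against a 1.5-fold change, 715 were called, 272 higher and 443 lower, since that null asks for more. Among 192 named genes tested under up to 16 other settings, 175 changed no call or direction; the exceptions were 1 reversal, Sox2 at -0.035 without WT replicate 1 (0.17, and called, without WT replicate 2), and lost or gained calls in 17 genes counting Sox2. With the replicate number as a block, 4205 genes were called, but same-numbered libraries of different groups did not deviate together (r from -0.01 to 0.05), so the numbers were not treated as pairs. Depth of 7221451 to 11447468 counted reads, and counting per transcript, limit genes of low counts or shared sequence.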

Other observations

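Germline genes divided, with 5 of 22 tested members called higher and 4 lower, beside 18.5% and 22.1% of all genes. Besides Piwil2, the testis kinase-like gene Stk31 was at 50.4 and 53.6 CPM in the OCT4-FKBP line in DMSO and 25.3 and 25.6 CPM in WT with LIF (log2 fold change 1.03, edgeR adjusted p = 5.2e-09). Tdrd12, of the same piRNA pathway as Piwil2, went the other way at 137 and 135 against 277 and 280 CPM (-1.03, edgeR adjusted p = 1.4e-12), as did Dpep3, a dipeptidase of the testis, at 0.70 and 0.53 against 8.92 and 8.47 CPM (-3.84). Prdm1 (BLIMP1), which specifies germ cells, was at 17.97 and 15.6 against 37.3 and 36.6 CPM (-1.16).

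Of 71 ribosomal protein genes, 20 were lower (28.2%) and 3 higher (4.23%), beside 22.1% and 18.5% of all genes. Their median was -0.08, and 1 of the 3 higher genes, Rpl32, lies on distal chromosome 6. Rpl36, at 29.5 and 24.99 against 41.8 and 42.7 CPM, gave -0.65 and Rpl4 -0.25. Nuclear genes of the respiratory chain counted 12 lower (19.4%) and 5 higher (8.06%) of 62, beside 22.1% and 18.5% of all genes. Ndufa13, a subunit of complex I, was at 123 and 120 against 196 and 165 CPM (-0.58). Of 20 mitosis genes, 7 were higher (35%) and 1 lower (5%), beside 18.5% and 22.1% of all genes, with a median of 0.13. Cdk1 was at 530 and 550 against 414 and 429 CPM (0.36) and Mki67 gave 0.35. Bub1b, the lower one (-0.14), lost its call under 11 of 16 other settings.

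Imprinted genes counted 4 higher (13.8%) and 8 lower (27.6%) of 29, beside 18.5% and 22.1% of all genes. Plagl1, a zinc finger growth regulator, was at 548 and 543 against 370 and 378 CPM (0.54) and the noncoding Kcnq1ot1 at 29.2 and 36.0 against 16.6 and 14.1 CPM (1.09), while the deiodinase Dio3 was at 2.11 and 3.26 against 11.7 and 11.6 CPM (-2.06). Of 18 interferon and antigen presentation genes, 6 were lower (33.3%) and 3 higher (16.7%), beside 22.1% and 18.5% of all genes. With DESeq2 the counts were 4 and 0. Bst2 (tetherin) was at 69.2 and 66.0 against 120 and 103 CPM (-0.73). Among 20 HOX genes, 4 were called each way, near the 18.5% higher and 22.1% lower of all genes. Hoxb9 was at 14.5 and 15.7 against 6.09 and 5.29 CPM (1.40).

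Regulators of DNA methylation counted 3 higher (Tet1, Trim28 and Dppa3) and 1 lower of 11. These shares were 27.3% and 9.09%, beside 18.5% and 22.1% of all genes. The lower one, the UHRF1 relative Uhrf2, was at 31.3 and 31.6 against 55.4 and 57.3 CPM (-0.84). Among 16 adhesion genes, Epcam (0.40), Cd9 (0.38) and Cdh2 (1.19) were higher and 5 lower, among them Icam1 (-0.53) and Cldn4 (-0.41). The shares of all genes were 18.5% higher and 22.1% lower. Cdh1, the E-cadherin of ES cell colonies, was at 2364 and 2299 against 2536 and 2448 CPM and was not called (edgeR adjusted p = 0.16). Of 8 genes of FK506-binding proteins and the CUL4 ligase, Fkbp3 (0.30) and Fkbp4 (0.40) were higher and Fkbp5 (-0.33) and Fkbp9 (-0.71) lower. Over all genes, 18.5% were called higher and 22.1% lower. Of 6 Y-linked genes, 0 were higher and 1 lower (16.7%, beside 22.1% of all genes). The lower one, Uba1y, was at 6.18 and 6.34 against 12.3 and 13.998 CPM (-1.06). Kdm5d gave 0.79 and Eif2s3y -0.60 without passing the test (edgeR adjusted p = 0.084 and 0.053). The transcript 1700016D06Rik had 2 reads in DMSO and 56 in WT, 26.6-fold after scaling (exact 95% interval 7.04 to 225).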
